A study of Mus musculus with 6 samples.

Results

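The transcripts of 10 mouse germline genes, Sycp1, Sycp3, Hormad1, Ddx4, Mael, Asz1, Tdrd1, Stk31, Dazl and Slc25a31, were followed in peripheral T-cell lymphomas (PTCL) of Dnmt3b+/- mice. The genes were chosen by name, as germ cell genes known for promoters that are methylated in somatic cells, with no threshold on measured values, and all 10 were found among the 34245 genes of the expression table. RNA-seq had been performed on 3 independent tumors from lymph nodes of FVB mice (FVB/N in the study's methods). The mice, whose age is not given in the sources used here, carried a conventional knockout allele of Dnmt3b beside the wild-type allele. The allele is present in every cell of the animal, so tumor cells and the other cells of the lymph node share the genotype. Only this group has RNA values here, so no test between groups was possible and all results below are descriptions of 3 tumors. The promoter methylation that gives these genes their name was not analysed here.

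Expression was given as FPKM, which count the fragments on a gene relative to its exon length and to the size of the library. The library sizes behind the values were 30726570 reads for tumor 1, 18969988 for tumor 2 and 20770928 for tumor 3, so a given FPKM rested on the most reads in tumor 1. In place of 0, genes without reads carry the FPKM that 0.9 read would give, which allowed the reads of each of the 10 genes to be recovered. Intervals given with a value are exact Poisson 95% confidence intervals of these reads, and where no read was found the FPKM of 3 reads is given as an upper limit. This limit is about the one-sided 95% bound of a count of 0, so it lies below the upper end of the two-sided interval used elsewhere. Both cover counting error only. The targeted gene itself, Dnmt3b, had 0.975, 1.55 and 1.25 FPKM in tumors 1, 2 and 3, which without a wild-type library does not check the genotype.

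Germline genes of this kind act in the specification of germ cells, in the pairing of chromosomes at meiosis and in the piRNA pathway, in which small RNAs bound to PIWI proteins silence transposons. In somatic cells many of them are kept off by methylation of CpG-dense promoters, an unusual arrangement because most CpG-dense promoters are free of methylation whether or not the gene is active. The methylation is laid down around implantation, largely by Dnmt3b, and a Polycomb complex that contains E2f6, Mga, Max, L3mbtl2 and Pcgf6 (PRC1.6) helps to recruit silencing to many germline promoters.

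Since these genes are named for their promoters, the sequence around each start of transcription was described first. All 10 genes had an entry in the RefSeq promoter table of GRCm38.p6, which holds 250 bases before and 50 bases after the start, and the most upstream start was used. The 10 windows held between 15 CpG (Sycp3) and 38 CpG (Ddx4), with a median of 23 against 7 over all 27025 promoters. The ratio of observed to expected CpG ranged from 0.666 in Sycp3 to 0.978 in Ddx4, and the median was 0.789 against 0.389 over all promoters. With CpG-rich defined as a ratio of at least 0.6 and a GC content of at least 50%, all 10 promoters were CpG-rich, compared with 34.1% of all promoters. Of the 80 genes in 5 other germline lists, 65 had a promoter entry and 22 of these (33.8%) were CpG-rich. The lists differed widely, with 13 of 21 promoters (61.9%) in the meiotic chromosome list and 7 of 14 in the piRNA pathway list, against 1 of 12 for germ cell regulators, 1 of 6 for testis paralogs and none of 12 for spermatid genes. The 10 genes are known for this kind of promoter, so the comparison is a description and was not tested.

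**Figure D1:**
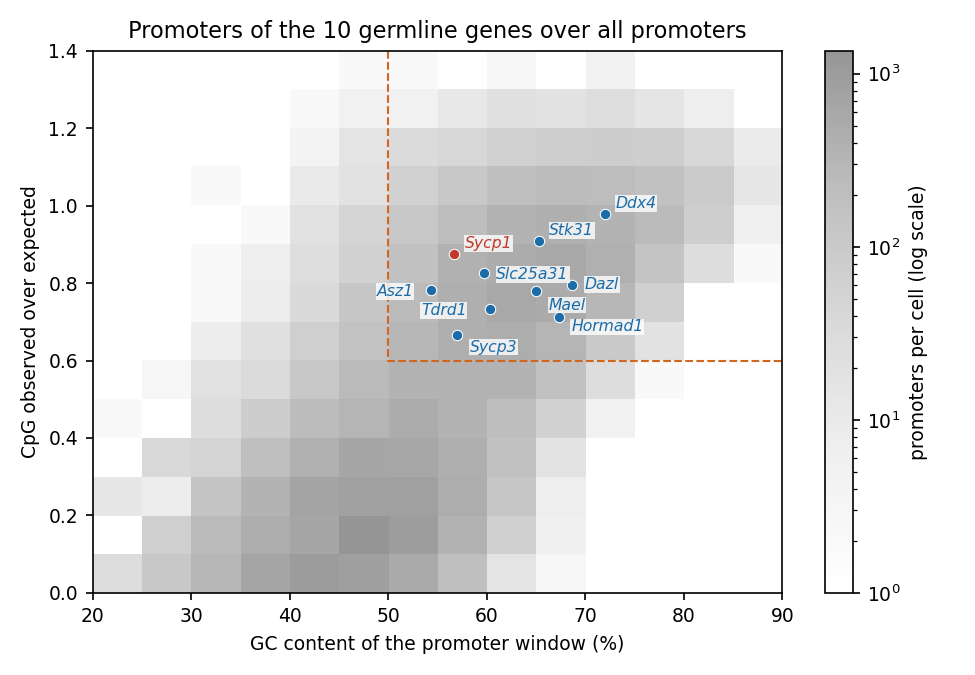
GC content (%, x axis) and observed over expected CpG (y axis) of the 300-base promoter windows. Grey cells give the number of promoters on a log scale, points are the 10 germline genes (red, Sycp1; blue, the others), and the dashed lines enclose the CpG-rich range, in which all 10 points lie. 7 promoters fall outside the axes.

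Motifs known from germline promoters were searched as exact letters on both strands of the same windows. CACGTG, the E-box that Max heterodimers bind, was found in 8 of the 10 promoters, all but Dazl and Asz1, and in 7.24% of all promoters. TCCCGC, the core of E2f6 sites, was found in 6 of the 10, namely Ddx4, Mael, Sycp1, Sycp3, Hormad1 and Slc25a31, and in 20.1% of all promoters. All 6 of these also held CACGTG, while both motifs occurred together in 2.05% of all promoters. TCCCGC was as frequent in the meiotic chromosome list, in 13 of 21 promoters (61.9%), of which 3 also held CACGTG. Both motifs contain a CpG, and their share among CpG-rich promoters alone was not counted. In 11 promoters of PRC1.6 genes, all of them CpG-rich, CACGTG was found in 18.2%, TCCCGC in 45.5% and both in 9.09%. The part of CpG content in the motif counts was not tested. Sycp3 and Hormad1 each had CACGTG at 2 places, in Sycp3 starting 64 and 43 bases before the start and in Hormad1 57 and 20 bases before it. Such matches describe the letters of the window and do not show that a factor was bound.

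The upstream bases of 6 promoters are written here 5′ to 3′ on the strand of the gene, with the letters of either motif in capitals, whichever strand it is on. Sycp1, Sycp3 and Hormad1 are shown as the meiotic chromosome genes, of which the first was the highest of the 10 genes, Slc25a31 for its reads in a single tumor, and Mael and Asz1 as genes without a read that do and do not hold the motifs. The sequences end at the start of transcription or where an annotated exon begins, so that a TCCCGC that lies after the start, as in Sycp1 and Slc25a31, is not part of them.
Sycp1, chr3:102936101-102936350, minus strand: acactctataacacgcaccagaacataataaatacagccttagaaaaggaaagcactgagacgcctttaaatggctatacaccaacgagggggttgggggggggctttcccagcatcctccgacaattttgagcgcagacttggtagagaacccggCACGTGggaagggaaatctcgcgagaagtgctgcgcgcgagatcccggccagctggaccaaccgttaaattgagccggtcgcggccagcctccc
Sycp3, chr10:88459337-88459568, plus strand: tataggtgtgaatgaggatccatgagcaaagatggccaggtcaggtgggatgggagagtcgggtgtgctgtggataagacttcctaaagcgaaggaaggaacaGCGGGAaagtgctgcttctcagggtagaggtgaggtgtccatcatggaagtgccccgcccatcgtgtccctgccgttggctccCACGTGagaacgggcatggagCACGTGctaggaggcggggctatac
Hormad1, chr3:95559427-95559676, plus strand: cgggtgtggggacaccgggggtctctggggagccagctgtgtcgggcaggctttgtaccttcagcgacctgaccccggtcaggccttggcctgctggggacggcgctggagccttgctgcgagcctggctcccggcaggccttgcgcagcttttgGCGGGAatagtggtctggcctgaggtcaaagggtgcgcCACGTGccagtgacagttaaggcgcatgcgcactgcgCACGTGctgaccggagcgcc
Slc25a31, chr3:40708621-40708854, plus strand: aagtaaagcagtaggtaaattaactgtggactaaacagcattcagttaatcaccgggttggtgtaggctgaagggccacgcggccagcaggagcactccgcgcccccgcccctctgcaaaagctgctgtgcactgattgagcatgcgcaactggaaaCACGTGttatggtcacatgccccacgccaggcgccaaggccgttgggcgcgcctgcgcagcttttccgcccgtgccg
Mael, chr1:166238748-166238994, minus strand: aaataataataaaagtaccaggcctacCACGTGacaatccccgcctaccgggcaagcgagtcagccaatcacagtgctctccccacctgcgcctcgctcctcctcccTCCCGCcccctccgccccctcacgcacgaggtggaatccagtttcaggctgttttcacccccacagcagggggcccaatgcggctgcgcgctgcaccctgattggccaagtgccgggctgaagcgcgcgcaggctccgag
Asz1, chr6:18109062-18109311, minus strand: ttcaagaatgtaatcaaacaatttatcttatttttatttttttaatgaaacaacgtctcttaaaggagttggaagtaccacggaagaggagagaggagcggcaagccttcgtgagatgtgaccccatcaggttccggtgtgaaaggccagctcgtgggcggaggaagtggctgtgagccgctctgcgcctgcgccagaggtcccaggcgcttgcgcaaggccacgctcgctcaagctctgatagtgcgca
The CpG sites in these stretches number 17 for Sycp1, 10 for Sycp3, 19 for Hormad1, 17 for Slc25a31, 18 for Mael and 15 for Asz1. Sycp1, which was above 0.2 FPKM in every tumor, did not stand at either end of the group in CpG content or motifs. Its observed over expected CpG was 0.874 and its GC content 56.7%. Sycp3, which also had reads in every tumor, had the fewest CpG of the 10 windows (15) and the lowest ratio (0.666).

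Most of the 10 genes were low. Sycp1 was above 0.2 FPKM, taken as the threshold of low expression, in every tumor, and Sycp3 was above it in tumors 2 and 3, so that without tumor 1 the count of genes above it in every tumor was 2 instead of 1. No read was found in any tumor for 5 genes, Ddx4, Mael, Asz1, Tdrd1 and Stk31, and Hormad1 had 1 read in all. The 1 of 10 genes above 0.2 FPKM in every tumor compares with 36.7% of all genes, and the 2 of 10 above it in at least 1 tumor with 46.3%. The 5 of 10 genes without a read in any tumor compare with 42.6% of the 32577 genes whose reads could be recovered and with 29.5% of the protein-coding genes among them. Of the 8368 measured genes with a CpG-rich promoter, 73.7% were above 0.2 FPKM in every tumor, and of the 499 with both motifs, 72.7% were. Of the 10 genes, 6 had both motifs, and 1 of these 6 was above 0.2 FPKM in every tumor. The difference of the 10 genes from these groups was not tested. The 10 genes together added up to 3.53, 1.26 and 1.58 FPKM in tumors 1, 2 and 3, and most of each sum came from Sycp1.

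**Figure D2:**
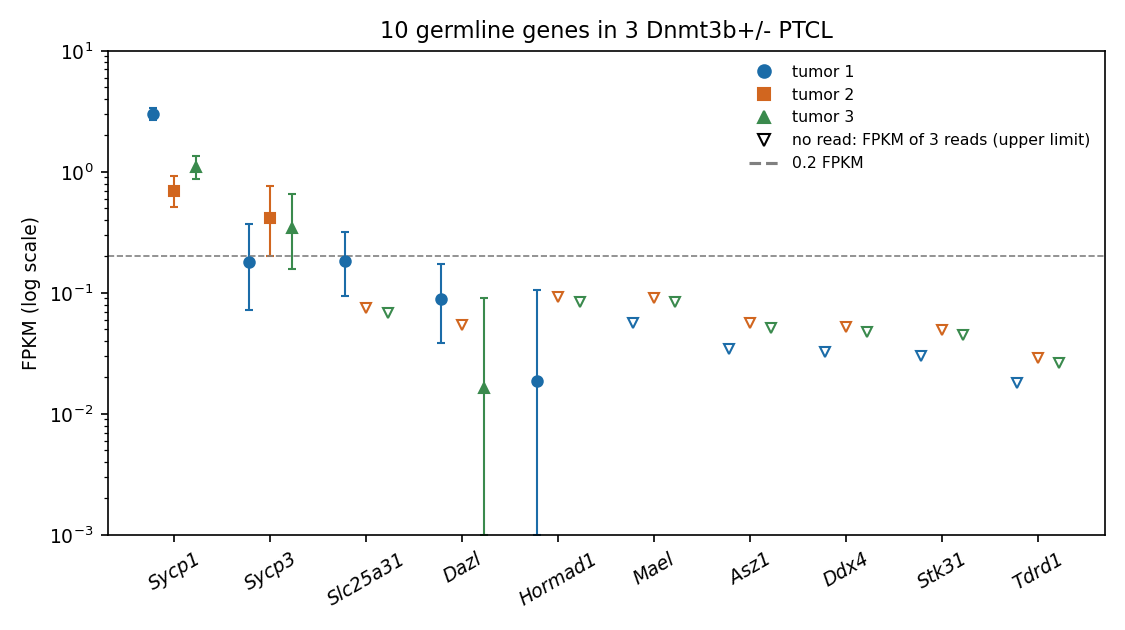
FPKM (y axis, log scale) of the 10 germline genes in tumors 1, 2 and 3, ordered by their mean. Filled symbols are measured values with exact Poisson 95% intervals of the reads, which for 1 read run off the lower edge, open triangles mark the FPKM of 3 reads where no read was found, and the dashed line is 0.2 FPKM, which Sycp1 alone exceeds in all 3 tumors.

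Of the genes of the meiotic chromosome axis and synaptonemal complex, Sycp1 encodes the transverse filament that zips homologous chromosomes together. In mm10, Sycp1 (ENSMUSG00000027855) occupies bases 102818499 to 102936100 of chromosome 3. It reached 3.01 FPKM in tumor 1 from 329 reads, 0.697 FPKM in tumor 2 from 47 reads and 1.10 FPKM in tumor 3 from 81 reads. The mean over the tumors was 1.6 ± 1.24 FPKM (SD, n = 3). Tumor 1 stood apart, because its interval of 2.69 to 3.35 FPKM did not overlap those of tumor 2 (0.512 to 0.927) and tumor 3 (0.871 to 1.36), which overlapped each other. Of the summed FPKM of Sycp1, 62.7% came from tumor 1, and the mean of the other tumors was 0.897 FPKM. The mean of Sycp1 was above that of 70.7% of all genes, among which are many without a read. The medians of the protein-coding genes were 0.544, 0.472 and 0.269 FPKM in tumors 1, 2 and 3, below Sycp1 in each. The presence of its RNA in every tumor goes against the description of this gene as silenced. The methylation of its promoter and the cells that held the RNA were not measured. Annotated pseudogenes on the opposite strand lie within the Sycp1 locus, but none of them shares a base with its exons.

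Sycp3, a component of the lateral elements to which Sycp1 attaches, followed another order. Sycp3 (ENSMUSG00000020059, chromosome 10 from 88459569 to 88473236) was lowest in tumor 1, at 0.180 FPKM, and had 0.417 FPKM in tumor 2 and 0.343 FPKM in tumor 3. The mean was 0.313 ± 0.121 FPKM (SD, n = 3). Only 7, 10 and 9 reads stand behind these values, and their intervals of 0.0725 to 0.371, 0.2 to 0.767 and 0.157 to 0.651 FPKM overlapped, so that the intervals did not separate the tumors at this depth. The Sycp3 gene lies within Chpt1, a choline phosphotransferase gene of the opposite strand, and 660 of its 1264 exon bases are also exon bases of Chpt1. Chpt1 had 0.723, 2.52 and 1.26 FPKM in tumors 1, 2 and 3, the same order as Sycp3. Strand use in the counting is not given in the sources used here, so the reads of Sycp3 cannot be told apart from those of Chpt1. Sycp1 exceeded Sycp3 beyond the counting intervals in tumors 1 and 3, while in tumor 2 their intervals overlapped.

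Hormad1, which marks chromosome axes that have not yet paired, had a single read in tumor 1 and none in tumors 2 and 3. Its locus (ENSMUSG00000028109, chromosome 3 from 95559677 to 95587671) is on the same chromosome as Sycp1. The read in tumor 1 corresponds to 0.0188 FPKM with an interval of 0.000477 to 0.105, and the limits of 3 reads in tumors 2 and 3 were 0.0915 and 0.0835 FPKM. Transcription was therefore not detectable above these levels. The nearest protein-coding genes on both sides were active in the same tumors. Ctss, a lysosomal protease gene whose locus lies 3.27 kb away, had 163, 111 and 103 FPKM, and Golph3l on the other side, 1.26 kb away, had 8.61, 4.88 and 6.24 FPKM.

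The 5 genes of the 10 without a read in any tumor were Ddx4, Mael, Asz1, Tdrd1 and Stk31, against 42.6% of all genes with recovered reads. This share was 27.8% in a separate piRNA pathway list (5 of 18 genes) and 15.4% in the meiotic chromosome list. In the spermatid, testis paralog and germ cell regulator lists it was 64.3%, 66.7% and 73.3%. None of these differences was tested. Ddx4 is the germ cell RNA helicase also known as Vasa, Mael acts in transposon silencing in the nucleus and the granules, Asz1 sits on the outer mitochondrial membrane where piRNAs are processed, and Tdrd1 is a Tudor domain scaffold that binds PIWI proteins. Stk31 encodes a protein with a Tudor and a kinase domain. In tumor 1, the deepest library, the limits of 3 reads for these 5 genes ranged from 0.0179 FPKM for Tdrd1 to 0.0563 FPKM for Mael. In the shallower tumor 2 they ranged from 0.0291 to 0.0913 FPKM and in tumor 3 from 0.0265 to 0.0833 FPKM, again for Tdrd1 and Mael. All these limits are under 0.2 FPKM, so the depth was sufficient to place each of the 5 genes below the threshold in each tumor. Small differences in the deposited FPKM of these genes between tumors reflect the depth alone, and no mean is given for them. The loci are spread over the genome, with Ddx4 (ENSMUSG00000021758) on chromosome 13, Mael (ENSMUSG00000040629) on chromosome 1, Asz1 (ENSMUSG00000010796) and Stk31 (ENSMUSG00000023403) on chromosome 6 and Tdrd1 (ENSMUSG00000025081) on chromosome 19.

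Dazl, an RNA-binding regulator of translation that germ cells need before and during meiosis, was found at a few reads. Dazl (ENSMUSG00000010592, chromosome 17 from 50279394 to 50293599) had 8 reads in tumor 1, or 0.0885 FPKM, a single read in tumor 3, or 0.0164 FPKM, and no read in tumor 2, where the limit was 0.0538 FPKM. The interval of tumor 1, 0.0382 to 0.174 FPKM, overlapped those of tumor 3, which reached 0.0912, and of tumor 2, which reached 0.0661. The intervals thus did not separate the tumors, and Dazl was below 0.2 FPKM in each. Its exon length in the table differed from the annotation, and its reads come from the length at which all 3 values are whole reads or no read.

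Slc25a31, the ADP/ATP carrier of meiotic germ cells that stands in for its X-linked relative Slc25a5, was detected in a single tumor. Slc25a31 (ENSMUSG00000069041, chromosome 3 from 40708855 to 40726096) gave 12 reads in tumor 1, or 0.184 FPKM, with an interval of 0.0948 to 0.321, and no read in the other tumors. Its limits were 0.0743 FPKM in tumor 2 and 0.0679 FPKM in tumor 3, and the upper ends of the two-sided intervals, 0.0914 and 0.0835 FPKM, were also below the interval of tumor 1. In all 3 tumors the somatic carriers of the same family were abundant. Slc25a4 had 45.5, 53.7 and 53.9 FPKM and Slc25a5 had 158, 306 and 351 FPKM. The helicase gene Ddx3x, a somatic relative of Ddx4, likewise had 54.5, 27.5 and 58.1 FPKM against no read of Ddx4.

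By their means, the order of the genes with reads in more than 1 tumor was Sycp1, Sycp3 and Dazl. In tumor 1, Sycp3 and Slc25a31 were at nearly the same level, 0.180 and 0.184 FPKM, while in tumors 2 and 3 Sycp3 was higher. The interval of Dazl in tumor 1 overlapped those of Sycp3 and Slc25a31. Of the 5 genes with at least 1 read in some tumor, all but Sycp3 were highest in tumor 1 in reads, the library with the greatest depth. For Sycp1 and Slc25a31 the FPKM, which account for depth, were also highest there by more than counting error.

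Of the 20 protein-coding genes nearest to the 10 loci, 1 on each side of each, 9 were above 0.2 FPKM in every tumor, a share near the 49.2% of all protein-coding genes. Next to Sycp1, the nuclear receptor gene Nr1h5, whose locus lies 3.56 kb away, had 7.97, 6.14 and 2.29 FPKM in tumors 1, 2 and 3, and Tspan2 on the other side, at 17.0 kb, had 0.589, 0.0665 and 0.0506 FPKM. Both were highest in tumor 1, as Sycp1 was, but lowest in tumor 3. Both neighbours of Mael were below 0.2 FPKM in every tumor, and neither neighbour of Asz1 or of Stk31 was above it in every tumor. Ddx4, Tdrd1, Slc25a31 and Sycp3 each had 1 neighbour above it in every tumor and 1 that was not. Dazl lay between the active genes Rftn1 and Plcl2, at distances of 88.7 and 216 kb.

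Other genes shared the distribution of Sycp1 over the tumors. It was compared with 11999 genes that had at least 50 reads and a mean of at least 0.2 FPKM, by the Euclidean distance between the shares of each tumor in the summed FPKM, and 81 of them lay within 0.05. Closest over the 3 tumors were Sirt4, Zfp788 and Prkca, at distances of 0.0055, 0.0064 and 0.0074. Prkca, for instance, had 15.4, 3.41 and 5.55 FPKM. No other of the 10 genes had enough reads for this comparison.

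To place the 10 genes among other germline genes, 5 lists without overlap with them were used. Of their 80 genes, 12 were above 0.2 FPKM in every tumor (15.0%), against 36.7% of all genes and 49.2% of protein-coding genes. No read in any tumor was found for 33 of the 79 with recovered reads (41.8%). This is near the 42.6% of all genes with recovered reads, while the share was 29.5% in the protein-coding ones. These differences were not tested. The median of the 10 genes, 0.0234 FPKM by the mean of the tumors, falls between Mael without a read and Hormad1 with 1 read, so it reflects mostly the value given to genes without reads and is not compared with the medians of the lists. In the meiotic list, 4 of 26 genes accompanied Sycp1 above the threshold in every tumor. These were the cohesin subunit Stag3, the synaptonemal complex gene Syce2, Spo11, which makes the breaks that start recombination, and Prdm9, which places them. Prdm9 had 2.07, 0.416 and 1.20 FPKM in tumors 1, 2 and 3, the order of Sycp1, whereas Stag3 had 0.755, 11.6 and 6.37 FPKM, lowest where Sycp1 was highest. Syce2 was highest in tumor 2 and Spo11 in tumor 1. Sycp2, the partner of Sycp3 in the lateral element, had 2 reads in all.

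In the piRNA list, 2 of 18 genes were above the threshold in every tumor and 5 had no read in any tumor. Tdrd7, a Tudor domain relative of Tdrd1 that is also used outside the germline, had 0.937, 2.93 and 2.48 FPKM, and Exd1 had 0.350, 0.262 and 0.319 FPKM. Among germ cell regulators, Dnd1 alone of 15 genes passed, and the next highest, Nanos3, had 5 reads in tumor 2 and none in tumors 1 and 3. The spermatid list passed with Tnp2, Prm1 and Zpbp of 15 genes and the testis paralog list with Gapdhs and Cox6b2 of 6. Prm1 had 1.53, 3.26 and 0.205 FPKM and Tnp2 had 2.73, 17.9 and 1.05 FPKM, both highest in tumor 2, where Sycp1 was lowest. For Prm1 the intervals of tumors 1 and 2 overlapped, and its level in tumor 3 rests on 2 reads. The reads of Prm1 come from a fitted exon length, as for Dazl. For Tnp2 no reads could be recovered, so its values have no interval. Zpbp, with 0.575, 0.335 and 0.499 FPKM, had the order of Sycp1, but its intervals overlapped. Spaca1, which did not pass, had 78 reads in tumor 1 and none in the others. Dnd1, Zpbp and Gapdhs share exon bases with a gene of the opposite strand, as Sycp3 does, and without such genes the count of 12 was 9.

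**Figure D3:**
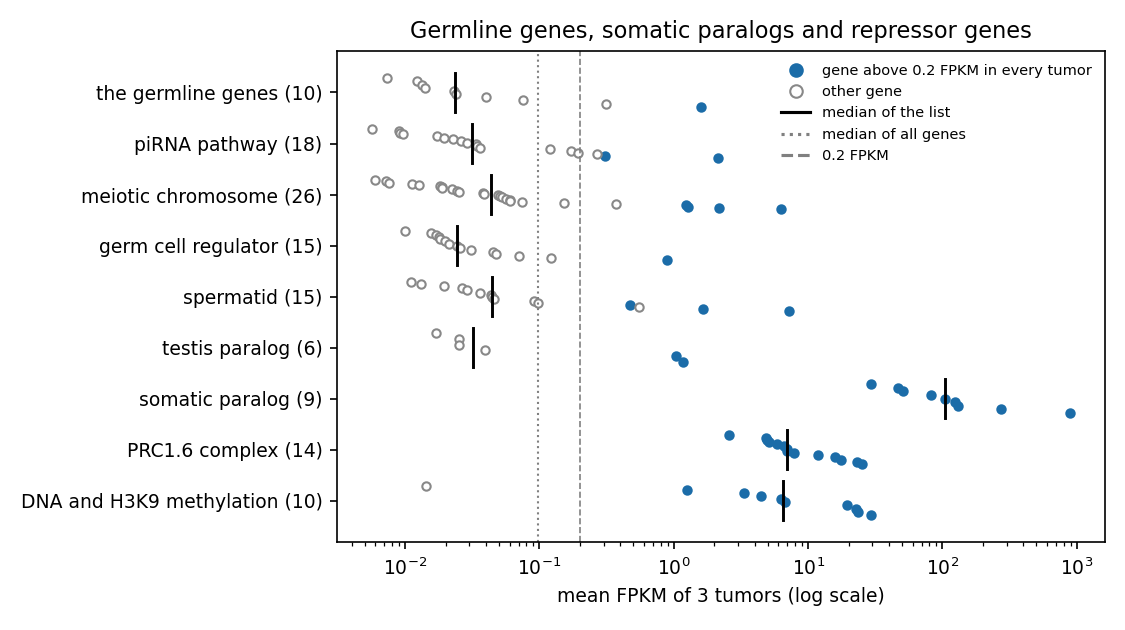
Mean FPKM of the 3 tumors (x axis, log scale) for each gene of the lists on the y axis, with the number of genes in parentheses. Filled points were above 0.2 FPKM in every tumor, vertical bars are list medians, and the germline lists lie mostly below the dashed line at 0.2 FPKM while the somatic paralogs and 23 of 24 repressor genes lie above it.

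The genes whose products repress germline promoters were transcribed in the tumors. Of 14 genes of PRC1.6, all were above 0.2 FPKM in every tumor, and of 10 genes of DNA and H3K9 methylation, all but Dnmt3l were. The same held for 36.7% of all genes and for 73.7% of genes with a CpG-rich promoter. The difference from these shares was not tested. E2f6 had 2.90, 2.41 and 2.36 FPKM in tumors 1, 2 and 3, and Mga had 5.31, 4.60 and 4.88 FPKM. Both were highest in tumor 1, but the interval of tumor 1 overlapped that of another tumor in each. Max was instead lowest in tumor 1, beyond its counting intervals. The H3K9 methyltransferase gene Setdb1 had 8.68, 5.39 and 4.73 FPKM, highest in tumor 1, whereas Ehmt2 had 16.6, 35.9 and 18.6 FPKM, lowest there. Dnmt3l, itself a germ cell gene, had 1, 1 and 0 reads. These are RNA levels, and whether the proteins occupied the promoters of the 10 genes was not measured.

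Markers of the cell types that a lymph node can hold were set beside Sycp1, because in bulk tissue more cells of a type and more RNA per cell cannot be told apart. The 8 T-cell markers were all above 0.2 FPKM in every tumor, led by Cd8b1, Cd8a and Lck, with summed FPKM of 1161, 872 and 1250 in tumors 1, 2 and 3. The order of the sums differed from that of Sycp1, which was 3.01, 0.697 and 1.10 FPKM. Within the list, however, Cd8a (258.5, 121.8 and 218.1 FPKM) and Cd4 (28.4, 4.28 and 8.22 FPKM) had the order of Sycp1, and the other 6 genes did not. All 4 myeloid markers were above the threshold in every tumor and highest in tumor 1, with sums of 244, 38.4 and 23.9 FPKM, led by Lyz2, Csf1r and Adgre1. By its sum, this was the only marker list that was highest in tumor 1. The sum was lowest in tumor 3, however, whereas Sycp1 was lowest in tumor 2. Within the list, Itgam (2.58, 0.562 and 0.664 FPKM) had the order of Sycp1, and Lyz2, Csf1r and Adgre1 did not. The B-cell markers Cd79a, Ms4a1 and Pax5, all above the threshold in every tumor, summed to 28.9, 8.21 and 56.7 FPKM and were lowest in tumor 2, as Sycp1 was.

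Markers of tissue other than lymphoid also differed between the tumors. The 5 pancreatic acinar markers, led by Ctrb1, Clps and Cpa1, summed to 62.3 FPKM in tumor 1 and 307 FPKM in tumor 2, with all 5 above 0.2 FPKM in both, and none of them had a read in tumor 3. Tumor 3 had 81 reads of Sycp1 and 9 of Sycp3. In tumor 3 alone, 13477 of all 34245 genes were above 0.2 FPKM. Of the 32577 genes whose reads could be recovered, 52.6% had no read there. Of the 10 genes, 2 were above 0.2 FPKM in tumor 3, the same 2 as in at least 1 tumor, and 7 had no read. One of the 2 is Sycp3, and without it, as a gene that shares exon bases with Chpt1, the count in at least 1 tumor was 1. The 4 stromal and epithelial markers, 2 of them above 0.2 FPKM in every tumor and led by Col1a1, Pdgfrb and Epcam, summed to 2.44, 18.3 and 0.655 FPKM and were highest in tumor 2, where Sycp1 was lowest. Of the 5 markers of gonadal somatic cells, Foxl2, Hsd3b6 and Cyp17a1 had no read in any tumor, Amh had 8, 17 and 4 reads, and Insl3 shares 404 of its 623 exon bases with Jak3. The gonadal sum of 21.3, 27.2 and 12.0 FPKM, nearly all from Insl3, was not ordered as Sycp1. The part of any of these marker lists in the levels of Sycp1 and Sycp3 was not tested.

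**Figure D4:**
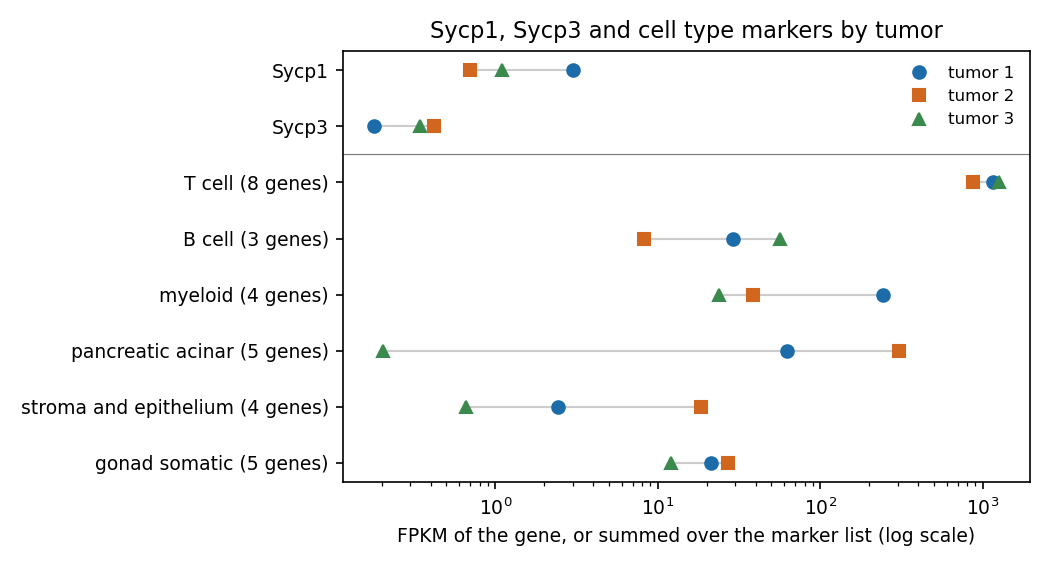
FPKM (x axis, log scale) of Sycp1 and Sycp3 and, below the line, the summed FPKM of each marker list in tumors 1, 2 and 3. Sycp1 and the myeloid markers are highest in tumor 1, but Sycp1 is lowest in tumor 2 and the myeloid markers in tumor 3. The pancreatic acinar markers in tumor 3 are at the value of genes without a read.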

How the data were processed

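RNA-seq (paired-end, 150 bp) of 3 Dnmt3b+/- PTCL was used. Sources differ on the sequencer. Per the labels and the study's methods, reads were aligned to mm10 with STAR, and SeqMonk quantified those with a mapping quality of 50 or more. The authors deposited FPKM on a linear scale, not pooled. The labels also list 3 bisulfite sequencing samples, which were not analysed here.

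The 10 genes and the gene lists were chosen with earlier results of these data known. Depth and reads were recovered as whole reads to within 0.01 read, with exon lengths of GENCODE M21 for 92.1% of genes and, with those whose length was fitted to the values, as for Dazl, for 95.1%. The recovery with annotated lengths was tested on simulated data, and the fitting of a length was not. FPKM were not tested, since there was 1 group. Named genes are the 10 genes, genes of the other germline lists above 0.2 FPKM in every tumor and the highest 2 of each list, compared paralogs and repressors, the 3 highest markers of each list with any read and the 3 genes closest to Sycp1. 1 planned marker is not reported here. Neighbours and other genes were named after their values were seen. Alternatives were other thresholds, scalings, pseudocounts, read limits, gene sets and promoter windows, and each tumor left out. Intervals were computed with SciPy 1.17.1, tables with pandas 2.3.3 and NumPy 2.4.6, and figures with matplotlib 3.10.9, under Python 3.11.15.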

Additional observations from a re-analysis of the deposited data

How the results depend on the processing

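The count of genes above 0.2 FPKM in every tumor, 1 of 10, rests on values near the threshold. It was 2 at a threshold of 0.1 FPKM, 0 at 1 FPKM, 2 with FPKM rescaled to a sum of 1000000 per tumor, 2 in tumor 3 alone, a setting chosen after seeing the data, and 1 to 2 with a tumor left out, the 2 without tumor 1, where Sycp3 was below the threshold. The count in at least 1 tumor, 2, was 3 at a threshold of 0.1 FPKM, 1 at 1 FPKM, 4 with rescaled FPKM and 1 without Sycp3, which shares exon bases with Chpt1. The 12 genes of the other germline lists became 2 at 1 FPKM and 19 with rescaled FPKM, which multiplies all values by 4.47 to 5.30. The summed level of the 10 genes, 2.12 FPKM, was 10.6 when rescaled. The 36.7% of all genes above 0.2 FPKM in every tumor became 61.0% of genes with at least 1 read, 49.2% of protein-coding genes, and 37.5% to 39.1% with a tumor left out, the last settings added after seeing the data, as was the exclusion of overlapping genes. Median-of-ratios factors changed none of the 4 counts above a threshold. The 5 genes without a read in any tumor were 5 to 7 over all settings run, the 23 repressor genes 22 to 23, and the median promoter CpG ratio 0.780 with 300 bases before and 150 after the start. No paired analysis was possible because the results come from 1 group and no test. At the depth of tumor 2, a count of 0 for Mael still allows a level of up to about 0.0913 FPKM.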
